A study of Arabidopsis thaliana with 4 samples.

Results

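Transcripts of 5 genes of ascorbate synthesis and the ascorbate-glutathione cycle were followed in Arabidopsis rosette leaves that had been given flavin adenine dinucleotide (FAD) from outside. The genes were GME, SAPX, TAPX, GR1 and GR, taken by their symbols in the array's annotation, and each had 1 probe set, so that they make up 5 of 22746 probe sets and 5 of 13286 genes with a named probe set. All 5 passed the filter on dim signals. They were picked from annotated genes whose signals and FAD against mock values on these arrays were already known, so these values are given as a description, and no p-value is given for them. Wild-type Col-0 plants had grown on soil for 3 weeks under a light period of 16 h. Detached leaves were laid 4 h into the light period either on 0.1 mM FAD or on plain water (mock) for 1 h. Each treatment had 2 biological replicates per the labels, each measured on 1 one-colour Affymetrix array. Both groups carried the same genotype and the same detachment and floating, and leaves that were never detached had no array.

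Ascorbate, or vitamin C, is the main soluble antioxidant of leaves. Plants make it chiefly from GDP-mannose, which GME, the GDP-mannose epimerase, turns into GDP-L-galactose. Ascorbate peroxidases use ascorbate to reduce hydrogen peroxide, and the oxidised forms of ascorbate are reduced again by monodehydroascorbate reductase, or by dehydroascorbate reductase at the expense of glutathione. Glutathione reductase then regenerates glutathione with NADPH and carries FAD as its bound cofactor. In leaves much of this cycle runs in the chloroplast, where photosynthesis gives rise to hydrogen peroxide.

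The 4 arrays had been scaled to one trimmed mean, 500.1, and the log2 signals of different arrays correlated at 0.968 to 0.978 over the 13648 tested probe sets (not independent of each other). Pairs of the same treatment, at 0.975 each, lay inside that range. FAD replicate 2 stood apart in the 9 first-set probe sets for hybridisation spike-ins, which were lower there by a median factor of 5.39, while the 9 second-set probe sets differed by a median log2 value of 0.14. Both 3' to 5' ratios of actin, which read RNA integrity, were lower in FAD leaves, at 23.6 and 27.5 against 31.0 and 33.0 in mock leaves for the first set, and at 4.70 and 5.34 against 5.42 and 5.56 in mock leaves for the second. The 4 ratios of GAPDH and ubiquitin overlapped between treatments and lay between 0.945 and 3.65. The actin ratios of both sets were thus higher than these on all 4 arrays, and the 2 actin sets differed in size. Leaf identity was checked with genes of photosynthesis, of which 4 of 8 listed had a named probe set. LHCB4.1, of a light-harvesting antenna, ran from 40988 to 44107 in FAD leaves and from 34490 to 40233 in mock leaves. The root marker EXPA7 reached at most 53.3 on any array. It was the only 1 of 5 listed root markers with a named probe set, and it was below the filter on dim signals.

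Of the 5 genes, GME had the lowest value relative to mock. The signal of GME (AT5G28840) was 2835 and 1998 in FAD leaves, against 4142 and 3900 in mock leaves. The FAD arrays were both below the mock arrays, and FAD replicate 2 was the lowest of the 4. The means were 2416 ± 592 in FAD leaves and 4021 ± 172 in mock leaves (SD, n = 2 each). GME thus stood 1.69-fold lower on FAD, with -0.76 ± 0.20 as log2 fold change and standard error (SE) in the limma fit over all tested probe sets. Of those probe sets, 3.66% had a larger log2 fold change in either direction. Without FAD replicate 2, the array with the low first-set spike-in signals, the log2 fold change of GME was -0.50, and without FAD replicate 1 it was -1.01. The part of the spike-in and actin differences in this value was not tested.

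The chloroplast ascorbate peroxidases SAPX and TAPX use ascorbate against hydrogen peroxide. SAPX is the stromal enzyme, also found in mitochondria, and TAPX is bound to the thylakoid membrane. SAPX (AT4G08390) had signals of 1173 and 1268 in FAD leaves, against 1252 and 803.9 in mock leaves. Here 3 of the arrays were close together and mock replicate 2 alone was low, so that the treatments overlapped. The means were 1221 ± 66.5 in FAD leaves and 1028 ± 317 in mock leaves (SD, n = 2 each). The log2 fold change was 0.28 ± 0.23 (SE), but it was -0.04 without mock replicate 2 and 0.60 without mock replicate 1.

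TAPX (AT1G77490) had signals of 1702 and 1805 in FAD leaves, against 2287 and 2055 in mock leaves. The FAD arrays were both below the mock arrays, with the smallest pooled replicate SD of the 5 genes, 0.09 on the log2 scale. The means were 1753 ± 73.4 in FAD leaves and 2171 ± 164 in mock leaves (SD, n = 2 each), giving a log2 fold change of -0.31 ± 0.16 (SE). A larger log2 fold change in either direction was found in 28.9% of the tested probe sets. Leaving out any 1 array gave TAPX values between -0.38 and -0.23.

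The signals of SAPX and TAPX cannot be set against each other as levels, since each probe set binds with its own strength, but the change of their ratio within an array can be followed. Relative to its mean in mock leaves, the log2 ratio of SAPX over TAPX was 0.58 and 0.60 on the FAD arrays, against 0.24 and -0.24 on the mock arrays. The FAD arrays were both above the mock arrays, and the mean log2 ratio was higher by 0.59 on FAD. Without mock replicate 2, where SAPX alone was low, the difference was 0.35, and without mock replicate 1 it was 0.83. The only other pair examined was GR over GR1, whose ratio overlapped between treatments. TAPX by itself already did not overlap, and a share over other pairs of probe sets was not taken. SAPX and TAPX are close relatives in sequence. Their probe set names carry the plain suffix that the array maker gives to probe sets designed for 1 transcript, and cross-hybridisation was not tested.

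**Figure D1:**
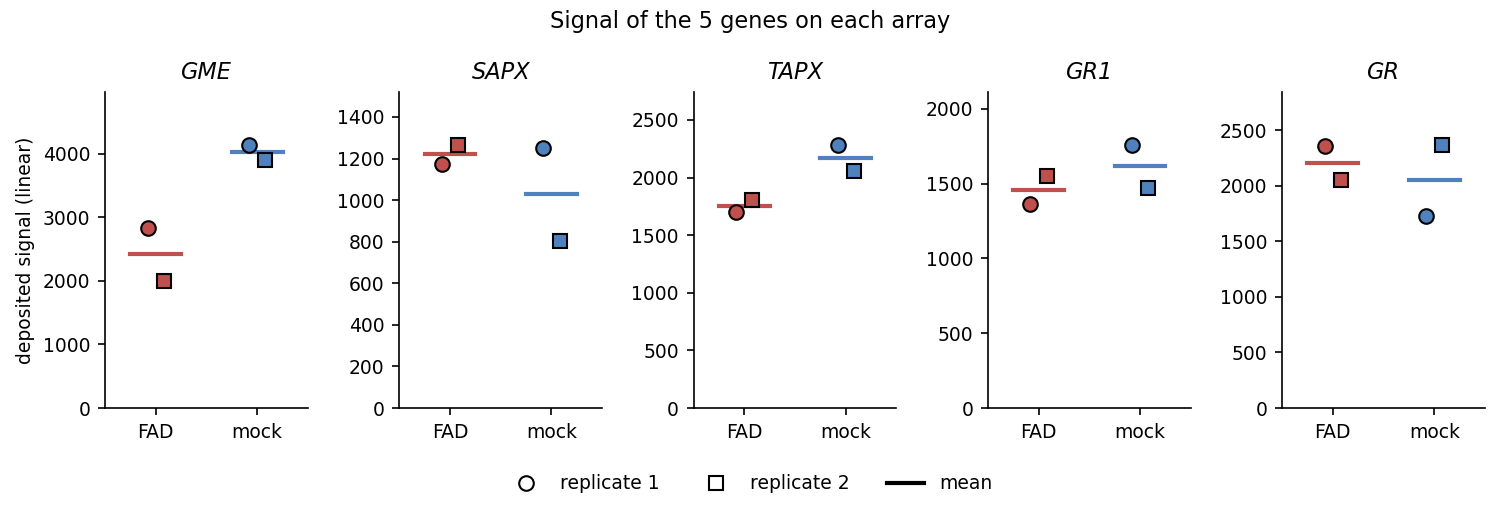
Deposited linear signal of GME, SAPX, TAPX, GR1 and GR on each array, with an axis of its own for each gene; circles are replicate 1, squares replicate 2 and bars the mean of 2 arrays. In GME and TAPX the FAD arrays are both below the mock arrays, whereas the FAD and mock arrays of SAPX, GR1 and GR overlap.

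The FAD-containing glutathione reductases close the cycle. GR1 is the enzyme of cytosol and peroxisomes, and GR, also called ATGR2 and EMB2360 in the annotation, is sent to both chloroplasts and mitochondria and is needed for embryo development. GR1 (AT3G24170) had signals of 1363 and 1550 in FAD leaves, against 1762 and 1473 in mock leaves. The ranges overlapped, since FAD replicate 2 lay above mock replicate 2. The means were 1457 ± 132 in FAD leaves and 1618 ± 205 in mock leaves (SD, n = 2 each), giving a log2 fold change of -0.15 ± 0.18 (SE).

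GR (AT3G54660) had signals of 2359 and 2053 in FAD leaves, against 1726 and 2371 in mock leaves. Both FAD arrays lay between the 2 mock arrays. The means were 2206 ± 216 in FAD leaves and 2048 ± 456 in mock leaves (SD, n = 2 each), giving a log2 fold change of 0.12 ± 0.20 (SE). Without mock replicate 1 the value of GR was -0.11. The log2 ratio of GR over GR1, relative to its mock mean, was 0.46 and 0.08 on the FAD arrays, against -0.36 and 0.36 on the mock arrays, and these overlapped.

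The spread between replicates differed among the genes and was not confined to 1 treatment. For GME the wider gap lay in FAD leaves, where replicate 2 minus replicate 1 was -0.50 on the log2 scale, against -0.09 in mock leaves. SAPX showed the reverse, with 0.11 in FAD leaves and -0.64 in mock leaves, and 6.78% of the tested probe sets had a lower value than SAPX between the mock arrays. GR had -0.20 in FAD leaves and 0.46 in mock leaves, where 9.97% of the tested probe sets were higher. TAPX and GR1 had smaller gaps, of 0.09 and 0.19 in FAD leaves and of -0.15 and -0.26 in mock leaves. The difference between the mock arrays of SAPX, GR1 and GR was larger than their log2 fold change between treatments. With 2 arrays a group, overlap requires at least 1 replicate gap as large as the log2 fold change. For GME and TAPX, whose arrays did not overlap, both replicate gaps were smaller than the log2 fold change.

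**Figure D2:**
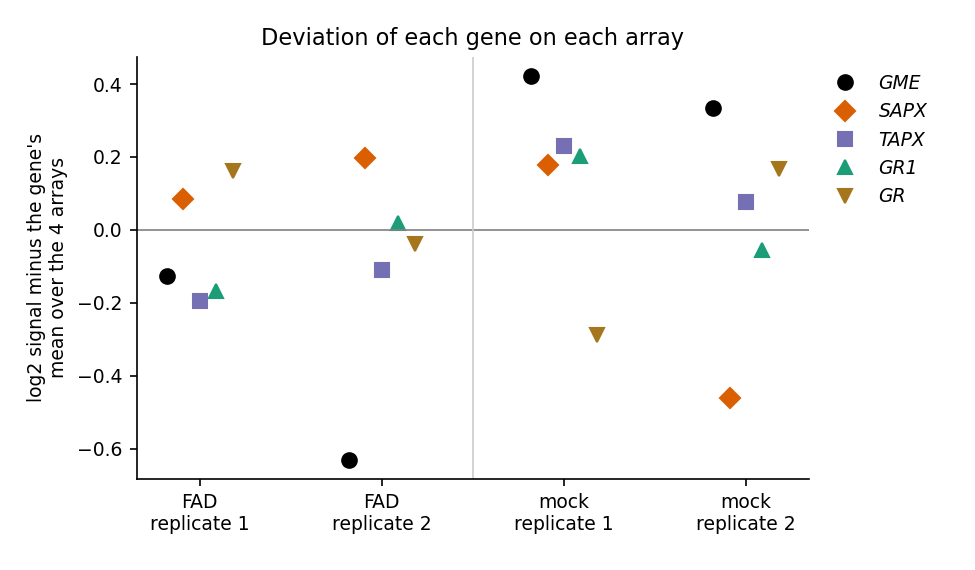
Log2 signal of each gene on each of the 4 arrays, minus that gene's own mean over the arrays. GME is low on FAD replicate 2 and SAPX on mock replicate 2, and the 5 genes follow no common order over the arrays.

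Taking arrays of the same replicate number, FAD minus mock of GME was -0.55 for replicate 1 and -0.96 for replicate 2 on the log2 scale. TAPX had -0.43 and -0.19. These 2 of the 5 genes had the same sign in both replicates, as any gene must whose FAD and mock arrays do not overlap. SAPX had -0.09 and 0.66, GR1 had -0.37 and 0.07, and GR had 0.45 and -0.21, so that their sign turned between replicates. What arrays of one number have in common is not given in the labels.

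Set among all tested probe sets, GME lay in the lower tail of the log2 fold changes, and the other 4 genes lay nearer the middle. Of the 13648 tested probe sets limma called 5, or 0.0366%, at a Benjamini-Hochberg adjusted p under 0.05, all lower on FAD, and 0 of these were among the 5 genes in this fit with the treatment as the only term. At an unadjusted p under 0.05 there were 938 probe sets, or 6.87%. A log2 fold change past 1.5-fold was found in 8.01% of the tested probe sets and in 1 of the 5 genes, GME. The arrays of the 2 treatments did not overlap in 37.0% of the tested probe sets and in 2 of the 5 genes. FAD lay below mock in both of these genes, as in 15.0% of the tested probe sets. The genes were picked with this contrast known, so these counts are only set side by side. The median log2 fold change over all tested probe sets was 0.05.

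**Figure D3:**
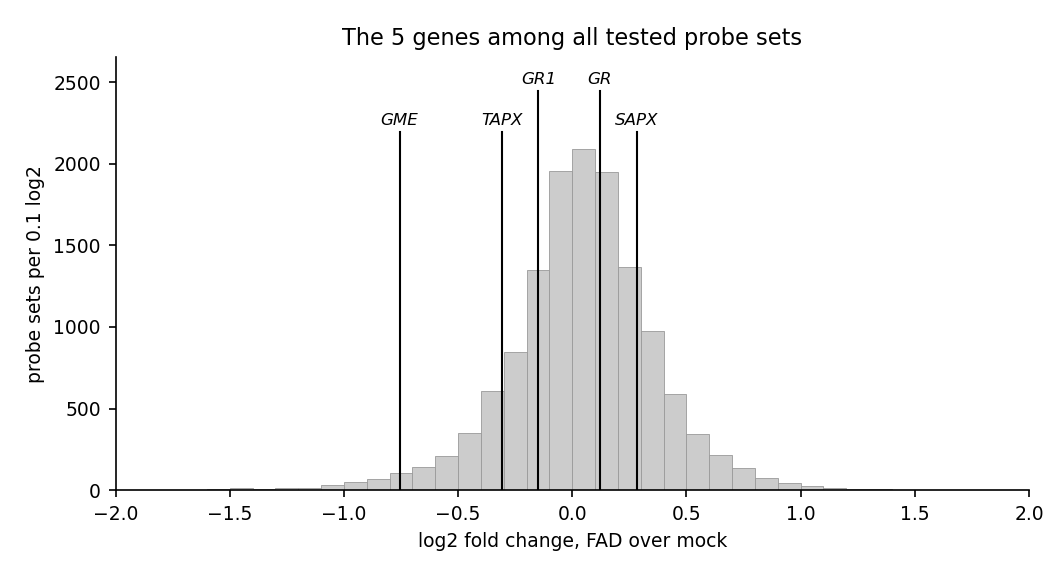
Number of tested probe sets per 0.1 of log2 fold change of FAD over mock (bars), with the 5 genes as vertical lines. The axis is limited to 2 in either direction and leaves 10 of 13648 probe sets outside; GME lies at -0.76, and the other 4 genes lie between -0.31 and 0.28.

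Around these 5 genes, 71 other genes of ascorbate and glutathione metabolism and of related redox enzymes were listed, and 18 of them had a probe set with 1 gene name, of which 17 passed the filter on dim signals. No gene of these 17 passed in limma (0 higher and 0 lower at an adjusted p under 0.05), against 0.0366% of all tested probe sets. An unadjusted p under 0.05 was found for 1 of the 17, against 6.87% of all tested probe sets. There were 9 positive and 8 negative log2 fold changes with a median of 0.00, against 0.05 over all tested probe sets. The arrays of the 2 treatments did not overlap in 8 of the 17 genes, against 37.0% of all tested probe sets. In 5 of the 8 the FAD arrays were higher, as in 22.0% of all tested probe sets, and in 3 they were lower, as in 15.0%. The lists of dehydroascorbate reductases, of glutathione synthesis and of superoxide dismutases and catalases had no named probe set here, so those steps were not analysed. Of 8 listed ascorbate peroxidases only SAPX and TAPX had a named probe set.

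In ascorbate synthesis, 5 of 10 listed genes had a named probe set, and the others were not analysed. The 4 named genes besides GME were tested, and none had a value as far below 0 as GME. PMM encodes phosphomannomutase, which acts before GME, and had signals of 1640 and 1834 in FAD leaves, against 1872 and 1493 in mock leaves, a log2 fold change of 0.05. VTC4, the phosphatase that releases L-galactose after GME, had 1575 and 2504 in FAD leaves, against 1723 and 2077 in mock leaves, a log2 fold change of 0.07. Both genes overlapped between treatments. GLDH, the mitochondrial dehydrogenase of the last step, had 363.5 and 437.0 in FAD leaves, against 313.7 and 308.0 in mock leaves. Its FAD arrays lay above its mock arrays, by 0.36 ± 0.20 on the log2 scale (SE, limma adjusted p = 0.782). AT4G33670, listed for the same pathway, had 1167 and 1284 in FAD leaves, against 1351 and 1530 in mock leaves. Its FAD arrays were both below its mock arrays, as for GME, with -0.23 ± 0.17 on the log2 scale (SE, limma adjusted p = 0.831).

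ATMDAR2 (AT5G03630), a monodehydroascorbate reductase and so another FAD-containing enzyme of the cycle, was the only one of 5 listed monodehydroascorbate reductases with a named probe set. Its signal was 4081 and 4175 in FAD leaves, against 2476 and 2971 in mock leaves. Both FAD arrays lay above both mock arrays, opposite to GME and TAPX. The log2 fold change was 0.61 ± 0.16 (SE), and it did not pass the correction (limma adjusted p = 0.503). This was the 1 gene of the 17 with an unadjusted p under 0.05 in limma, at 0.00704. The lists were chosen with earlier results of these data known, so that p-value is no test of ATMDAR2.

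Of 7 other genes listed for FAD-containing disulfide reductases, the enzyme group of glutathione reductase, 2 had a named probe set. NTRC, the chloroplast NADPH-dependent thioredoxin reductase, had signals of 2335 and 2668 in FAD leaves, against 2338 and 2697 in mock leaves, a log2 fold change of -0.01. AT4G16155, listed in the same group, had 0.00 with a standard error of 0.26. Of 12 listed peroxiredoxin and glutathione peroxidase-like genes, the 2 with a named probe set, AT3G11630 and AT3G52960, had -0.05 and 0.06. All 4 loci overlapped between treatments.

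The list of ascorbate transport, oxidation and regulation had 6 tested loci, between -0.31 and 0.57. CSN5B, which encodes a subunit of the COP9 signalosome, had signals of 132.1 and 94.5 in FAD leaves, against 77.6 and 72.6 in mock leaves, a log2 difference of 0.57 ± 0.32 (SE, limma adjusted p = 0.782). AT1G74910 had -0.31, AT5G21100 -0.30, AT4G39830 -0.29, AT5G21105 -0.08 and AT2G04650 0.24. Of the hydrogen peroxide response list, the zinc finger factor gene STZ had -0.04, with 3371 and 4361 in FAD leaves and 3371 and 4578 in mock leaves, and was higher on replicate 2 in both treatments. AT2G21640 of the same list had 0.43 with a standard error of 0.31.

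**Figure D4:**
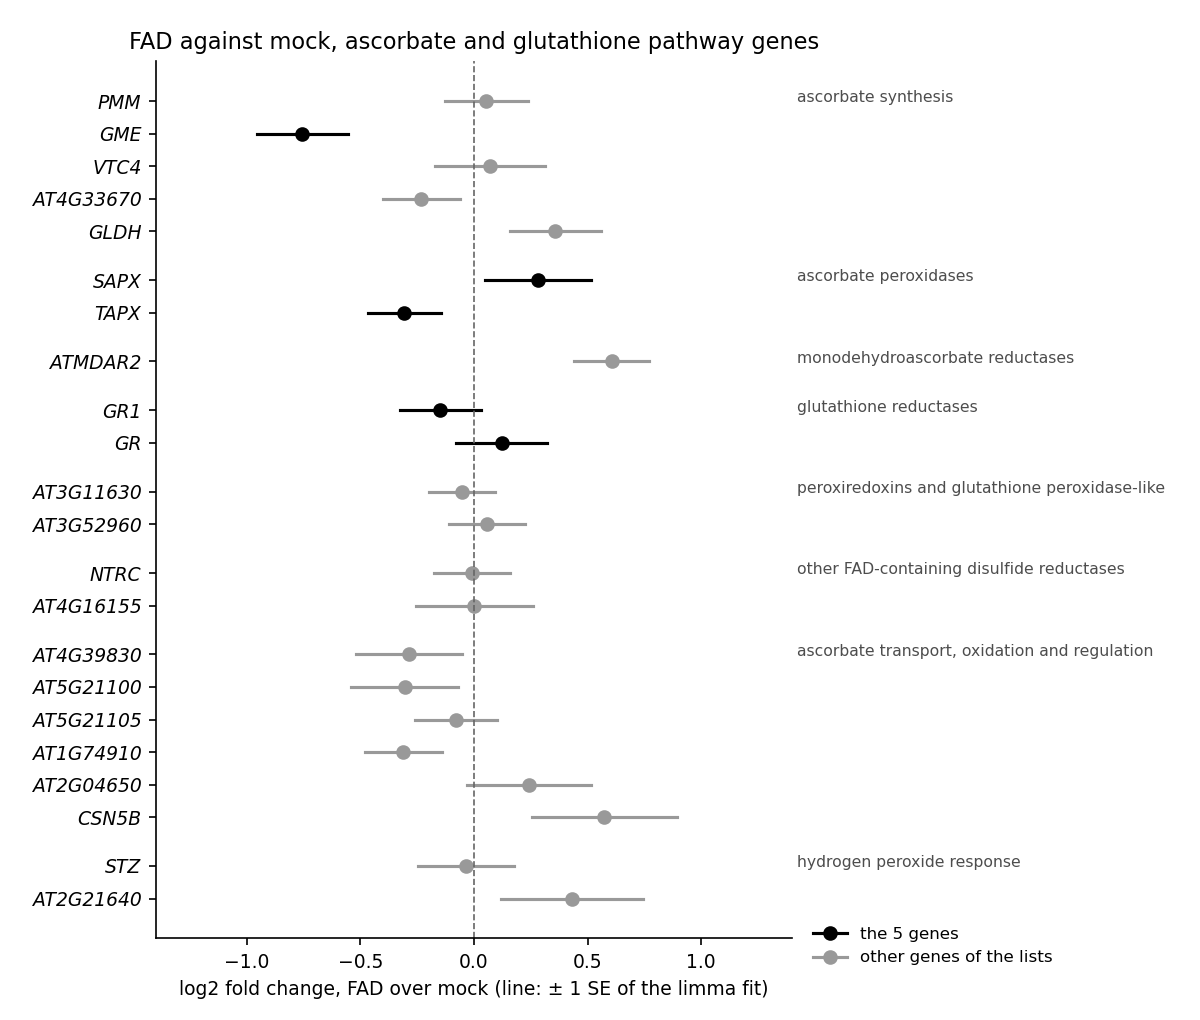
Log2 fold change of FAD over mock for the 22 tested genes of the lists (points) with 1 standard error of the limma fit on either side (lines); the 5 genes are black and the other 17 grey. GME lies lowest at -0.76 and ATMDAR2 highest at 0.61, and none of the 22 passed in the limma fit that had treatment alone.

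Genes whose 4 log2 signals, centred on their own mean, came closest to each of the 5 genes were looked up among 7259 other genes. The measure was the root mean square difference over the 4 arrays, so a small value says only that a gene followed the same 4 deviations. For GME these were AT5G08430 and AT3G07640, at 0.026 and 0.027, against a median of 0.472 over all the genes searched. SAPX was closest to MSRB9, a methionine sulfoxide reductase gene, at 0.011, and to AT5G11280 at 0.022. TAPX was closest to AT3G13062 at 0.012 and AT5G15240 at 0.018. GR1 was closest to AT2G23780 and AT3G62970, both at 0.017, and GR to AT5G62650 at 0.014 and AT4G32030 at 0.026. None of the 5 genes was among the 2 closest of another, which says little about a shared pattern with 7259 genes searched.

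Of cell type markers, FMA, a guard cell gene, had signals of 160.3 and 255.9 in FAD leaves, against 137.1 and 133.3 in mock leaves (log2 fold change 0.58), while AT1G22690 of the same list had -0.05. The phloem sugar transporter gene SWEET11 had -0.02, and the leaf markers LHCB4.1, RCA, PRK and SBPASE ran from -0.05 to 0.19. Only 2 of 4 listed guard cell markers and 1 of 4 listed phloem markers had a named probe set. A part of these values in those of the 5 genes was not tested. In whole leaves, fewer cells of a type and less RNA per cell cannot be told apart.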

How the data were processed

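A 3' kit turned total RNA into biotin-labelled RNA, per the labels' protocols. The deposited linear intensity of each probe set came from GCOS, per the submitters' processing notes, whose version and algorithm the sources used here do not give. The 2% trimmed means differed by 0.000764% between arrays, so the deposited scaling was kept. Signals were log2 transformed with no added constant, 64 control probe sets were set aside, and probe sets with a mean log2 signal of at least the 40th percentile (geometric mean 63.6) were tested: 13648 of 22746. Limma 3.58.1 in R 4.3.3 compared FAD with mock (lmFit, eBayes with a mean-variance trend, treatment as the only term, all 4 arrays, 2 residual and 5.43 prior degrees of freedom), with Benjamini-Hochberg adjustment over all tested probe sets; the fit was tested on simulated data. No exact permutation test was run, since with 2 arrays a group its two-sided p is at least 0.333. The number of arrays limits the precision: log2 fold changes had a median standard error of 0.23. The labels call the replicates biological but do not say whether they came from separate plants. The p-values therefore cover the spread between these arrays alone, which may be technical.

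Probe sets with 1 gene name (13513) were matched by gene ID to the TAIR10.1 reference table (13436 matched). The files name no build, so no coordinates are given. Probe-level data and detection calls were not used here. The genes, the lists and the rule for named genes (the 5 genes, each listed gene with a named probe set, and the 2 closest genes to each of the 5) were chosen with earlier results of these data known. The alternatives tried were median centring, quantile normalization, adding 32 to each signal, testing all probe sets or those above the 60th percentile, dropping the trend, the replicate number as a block and leaving out each array.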

Additional observations from a re-analysis of the deposited data

How the results depend on the processing

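All 5 genes kept the sign of their log2 fold change with quantile normalization, with median centring and with 32 added. The replicate block cannot move a log2 fold change in this balanced design, and leaving out an array cannot turn GME or TAPX, whose groups do not overlap. SAPX turned without mock replicate 2 (-0.04) and GR without mock replicate 1 (-0.11). With 1 array left out, GME ran from -1.01 to -0.50, SAPX from -0.04 to 0.60, TAPX from -0.38 to -0.23, GR1 from -0.28 to -0.02 and GR from -0.11 to 0.35. Median centring moved TAPX to -0.40, by slightly more than its pooled replicate SD of 0.088 but less than the gap between its mock arrays, and GME to -0.85. The log2 ratio of SAPX over TAPX without 1 array, added after seeing the data, ran from 0.35 to 0.83, and that of GR over GR1 from -0.09 to 0.63. The count of probe sets called lower, 5 over all tested, became 18 under median centring, 2 when all probe sets entered, 2 under the 60th percentile filter and 0 if the trend was dropped; with 1 array left out it ran from 1 (without FAD replicate 2 or mock replicate 1) through 2 (without mock replicate 2) to 4, the lone array of a group being taken to vary like the others. The count called higher, 0, ran from 0 to 1 there. With the replicate number as a block limma called 36 higher and 153 lower of the 13648 tested probe sets. The replicate block moved the count of called pathway genes from 0 to 1, which was GME. GME was picked with this contrast known, so that call is no test of it. Deviations of same-numbered arrays correlated at 0.219 across probe sets, and the labels do not say what same-numbered samples share. Causes were not tested. The mean of a gene's probe sets gave no other value, since each of the 5 genes has 1.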

Other observations

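AT2G40860, listed with the regulators of ascorbate, was below the filter on dim signals, with 43.3 and 54.7 in FAD leaves, against 20.9 and 24.0 in mock leaves.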
